A study of Mus musculus with 2 samples.

Results

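This account covers 9 genes of the liver X receptor and sterol efflux system, taken by gene symbol from the 32285 genes listed in each of 2 single-cell RNA libraries of mouse central nervous system. They were 3 nuclear receptors (Nr1h3, Nr1h2 and Pparg), 3 genes that load sterol onto lipoprotein particles (Apoe, Abca1 and Abcg1) and 3 that handle sterol inside or around the cell (Mylip, Ch25h and Npc2). All 9 had a row in both libraries and unique molecular identifiers (UMIs, each standing for 1 captured RNA molecule) in both. The libraries were labelled Cx3cr1-/+ (called Het here, 1 library) and Cx3cr1+/+ (called WT here, 1 library), and both were labelled as microglia-like cells of the CNS. Per the labels' protocols, lineage-negative (Lin-) GFP+ and GFP- cells of Cx3cr1-/+ mice were given by vein to CD45.1 recipients at a 1:1 ratio of donors to recipients, after busulfan in 4 doses of 25 mg/kg. Both libraries carry this same text, so the labels used here do not state which donor cells gave the WT library, nor do they give sex, age, time after transplantation or the number of animals. The design text names progeny of Cx3cr1 haplo-insufficient and WT haematopoietic stem and progenitor cells, and asks by that comparison how they differ.

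On GRCm38 with the GENCODE M21 annotation the genes, all protein-coding, are spread over 8 chromosomes. Nr1h3 spans chr2:91184061-91202834 (minus strand), Nr1h2 chr7:44549616-44553951 (minus) and Pparg chr6:115360951-115490399 (plus). Apoe spans chr7:19696109-19699188 (minus), Abca1 chr4:53030787-53159895 (minus) and Abcg1 chr17:31057675-31117988 (plus). Mylip spans chr13:45389742-45412022 (plus), Ch25h chr19:34473778-34475164 (minus) and Npc2 chr12:84754562-84773152 (minus).

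Liver X receptors, encoded by Nr1h3 (LXR alpha) and Nr1h2 (LXR beta), bind oxysterols and, paired with a retinoid X receptor, switch on genes that move cholesterol out of the cell. Abca1 and Abcg1 encode membrane transporters that pass cholesterol and phospholipid to lipid-poor apolipoproteins and to formed particles, and Apoe encodes the main apolipoprotein of the brain. Microglia and other brain macrophages use this route when they take up lipid-rich debris such as myelin.

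The liver X receptor pair is known to bind a direct repeat of a short half-site with a spacing of 4 bases, and Abca1 is among its textbook targets. The letters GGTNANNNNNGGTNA, searched on both strands, occurred in 236 of 32851 RefSeq promoter windows of 300 bases (0.718%; GRCm38.p6, 250 bases before and 50 after each gene's start). Windows were found for 8 of the 9 genes (13 windows), and the Abca1 window alone among these held the letters. The stretch is printed because, of the 9 genes, Abca1 followed Apoe most closely in level across clusters. It lies at chr4:53159918-53159993 on GRCm38.p6 and is written 5′ to 3′ in the direction of the gene, which is on the minus strand. Capitals mark the match, which reads on the opposite strand and begins 67 bases before the gene's start.
Abca1: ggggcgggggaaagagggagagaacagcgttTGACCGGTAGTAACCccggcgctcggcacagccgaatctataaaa
A match of letters is a description of the window and not a measured binding site.

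The Het library held 17828344 UMIs in 1837 barcodes and the WT library 22062823 UMIs in 2359 barcodes. After a filter on genes and mitochondrial UMIs, 1489 Het cells (81.1%) and 1949 WT cells (82.6%) were kept, with medians of 6880 and 6637 UMIs. The libraries shared 339 barcodes, of which 255 were kept in Het and 198 in WT. Cells fell into 17 clusters. Cx3cr1 itself, the gene of the genotype, was at 1730 CPM in Het and 1897 CPM in WT microglia-like cells (ratio 0.912, interval 0.874 to 0.951) and at 228 CPM in Het and 349 CPM in WT monocyte-like cells (ratio 0.654, interval 0.592 to 0.721). These 3′ counts do not check the genotype, because the altered stretch of the gene is not given in the labels used here.

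The label of microglia-like cells held for part of each library only. The microglia-like class, defined by P2ry12, Siglech, Sall1, Tmem119 and other fixed markers, had 243 of 1489 Het and 354 of 1949 WT cells. It was made of a deep cluster (121 Het and 166 WT cells, medians of 10628 and 8644.5 UMIs) and a shallow cluster (122 Het and 188 WT cells, medians of 3105 and 2545.5 UMIs). The monocyte-like class was made of patrolling monocyte-like cells (193 Het, 450 WT) and classical monocyte-like cells (80 Het, 152 WT). A cluster led by Gpnmb, Spp1, Ms4a7 and Igf1 (162 Het, 64 WT cells) took a border macrophage-like name by the marker rule. Of its 10 leading genes 5 were border macrophage markers, but Gpnmb and Spp1 lead it and it is called the Gpnmb-Spp1 cluster. With each library clustered alone, Gpnmb and Spp1 led the cluster with most Gpnmb in Het. In WT that cluster was led by Cbr2 and Cd209f, and Gpnmb was not among its 10 leading genes. At a clustering resolution of 1.0 a border macrophage-like cluster of 21 cells stood apart. A cluster led by H2-Eb1, Cd74, Mgl2 and Cd209a (184 Het, 226 WT cells) took a dendritic cell-like name. It held C1qa at 3303 CPM in Het and 2540 CPM in WT, and it is called the class II cluster. At a clustering resolution of 1.0 such leading genes were spread over separate clusters. A cluster of 277 cells led by H2-Eb1 and Cd74 had C1qa at 4340 CPM. A dendritic cell-like cluster of 151 cells led by Cd209a and Ccl17 had 204 CPM. How a mix of such cells bears on the class II values was not tested. The remaining clusters were neutrophil-like, NK cell-like, endothelial cell-like, ependymal or choroid plexus-like, others that took no name, and smaller ones. The Gpnmb-Spp1 cluster was 10.9% of Het and 3.28% of WT cells, and patrolling monocyte-like cells were 12.96% of Het and 23.1% of WT cells.

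The libraries also differed in sex-linked RNA, which bears on every comparison between them. In the monocyte-like class, 227 Het cells carried Xist and 4 carried Y-linked RNA, against 9 WT cells with Xist and 350 with Y-linked RNA. In the deep microglia-like cluster, 115 Het cells carried Xist and 0 carried Y-linked RNA, whereas 93 WT cells carried Xist, 20 carried Y-linked RNA and 33 carried both. The WT library was therefore mixed within that cluster, and the labels used here do not say which mark belongs to donor or recipient. Genotype, sex mark and library cannot be told apart in the comparisons that follow, and values by mark are given for the deep microglia-like, Gpnmb-Spp1 and class II clusters.

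Levels are given as counts per 1000000 UMIs (CPM), with the cells of a cluster summed within a library. With 1 library per genotype there was no test across samples. The intervals, all at 95%, cover counting error only. A gene counted as measured in a cluster with 50 or more UMIs over both libraries, and as higher or lower in Het when the ratio passed 1.5-fold.

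Among the receptors, Nr1h3 and Pparg were highest in patrolling monocyte-like cells and low in the microglia-like and Gpnmb-Spp1 clusters, while Nr1h2 varied less across clusters. Nr1h3 stood at 61.4 CPM in Het and 64.0 CPM in WT patrolling cells, which held 35.8% of all kept Nr1h3 UMIs in Het and 41.6% in WT. In the deep microglia-like cluster Nr1h3 was at 12.01 CPM in Het and 17.2 CPM in WT. It was lower still in the Gpnmb-Spp1 cluster, at 5.87 CPM (9 UMIs) in Het and 6.03 CPM (3 UMIs) in WT. Among the 13 clusters with 20 or more cells in each library, the patrolling interval did not overlap the next in order in either library, and every later cluster overlapped its neighbour. In WT the endothelial cell-like interval, from 5 UMIs, reached up to 66.5 CPM and so overlapped that of patrolling cells. NK cell-like and mature neutrophil-like cells had 0 Nr1h3 UMIs in both libraries. After each cell was thinned to 2000 UMIs, a UMI of Nr1h3 was found in 6.51% of Het and 8.05% of WT patrolling cells, against 0% of NK cell-like cells in both.

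Pparg, a receptor for fatty acid ligands that acts alongside the liver X receptors in macrophages, was at 75.03 CPM in Het (99 UMIs) and 99.0 CPM in WT (288 UMIs) patrolling monocyte-like cells. That single cluster held 42.3% of the kept Pparg UMIs in Het and 52.1% in WT. The next levels were 16.5 CPM in Het classical monocyte-like cells and 29.4 CPM in the WT neutrophil-C1q cluster. That cluster took no name by the marker rule. Neutrophil genes such as Csf3r and Cxcr2 were among its leading genes, and it also carried C1q genes. Its median depth was 16694.5 UMIs in Het and 16101.5 in WT, and 64 of its 190 WT cells carried both Xist and Y-linked RNA. The deep microglia-like cluster had 13.2 CPM in Het and 14.2 CPM in WT, and the Gpnmb-Spp1 cluster had 4.56 and 2.01 CPM, from 7 UMIs in Het and 1 in WT. Thinned to 2000 UMIs, 17.2% of Het (29 of 169) and 19.2% of WT (74 of 385) patrolling cells held a Pparg UMI, against 2.80% of Het and 1.37% of WT deep microglia-like cells.

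Nr1h2 moved within a narrower band than Nr1h3 and Pparg. It ran from 21.6 CPM in ependymal or choroid plexus-like cells to 57.0 CPM in endothelial cell-like cells in Het, and from 22.4 CPM in mature neutrophil-like to 57.0 CPM in endothelial cell-like cells in WT. Every cluster overlapped its neighbour in that order in both libraries, but clusters further apart did not all overlap. In Het the patrolling interval (42.7 to 68.7 CPM) lay above that of the Ctsk-Elane cluster (18.7 to 41.9 CPM). The deep microglia-like cluster had 46.8 CPM in Het and 45.1 CPM in WT.

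**Figure D1:**
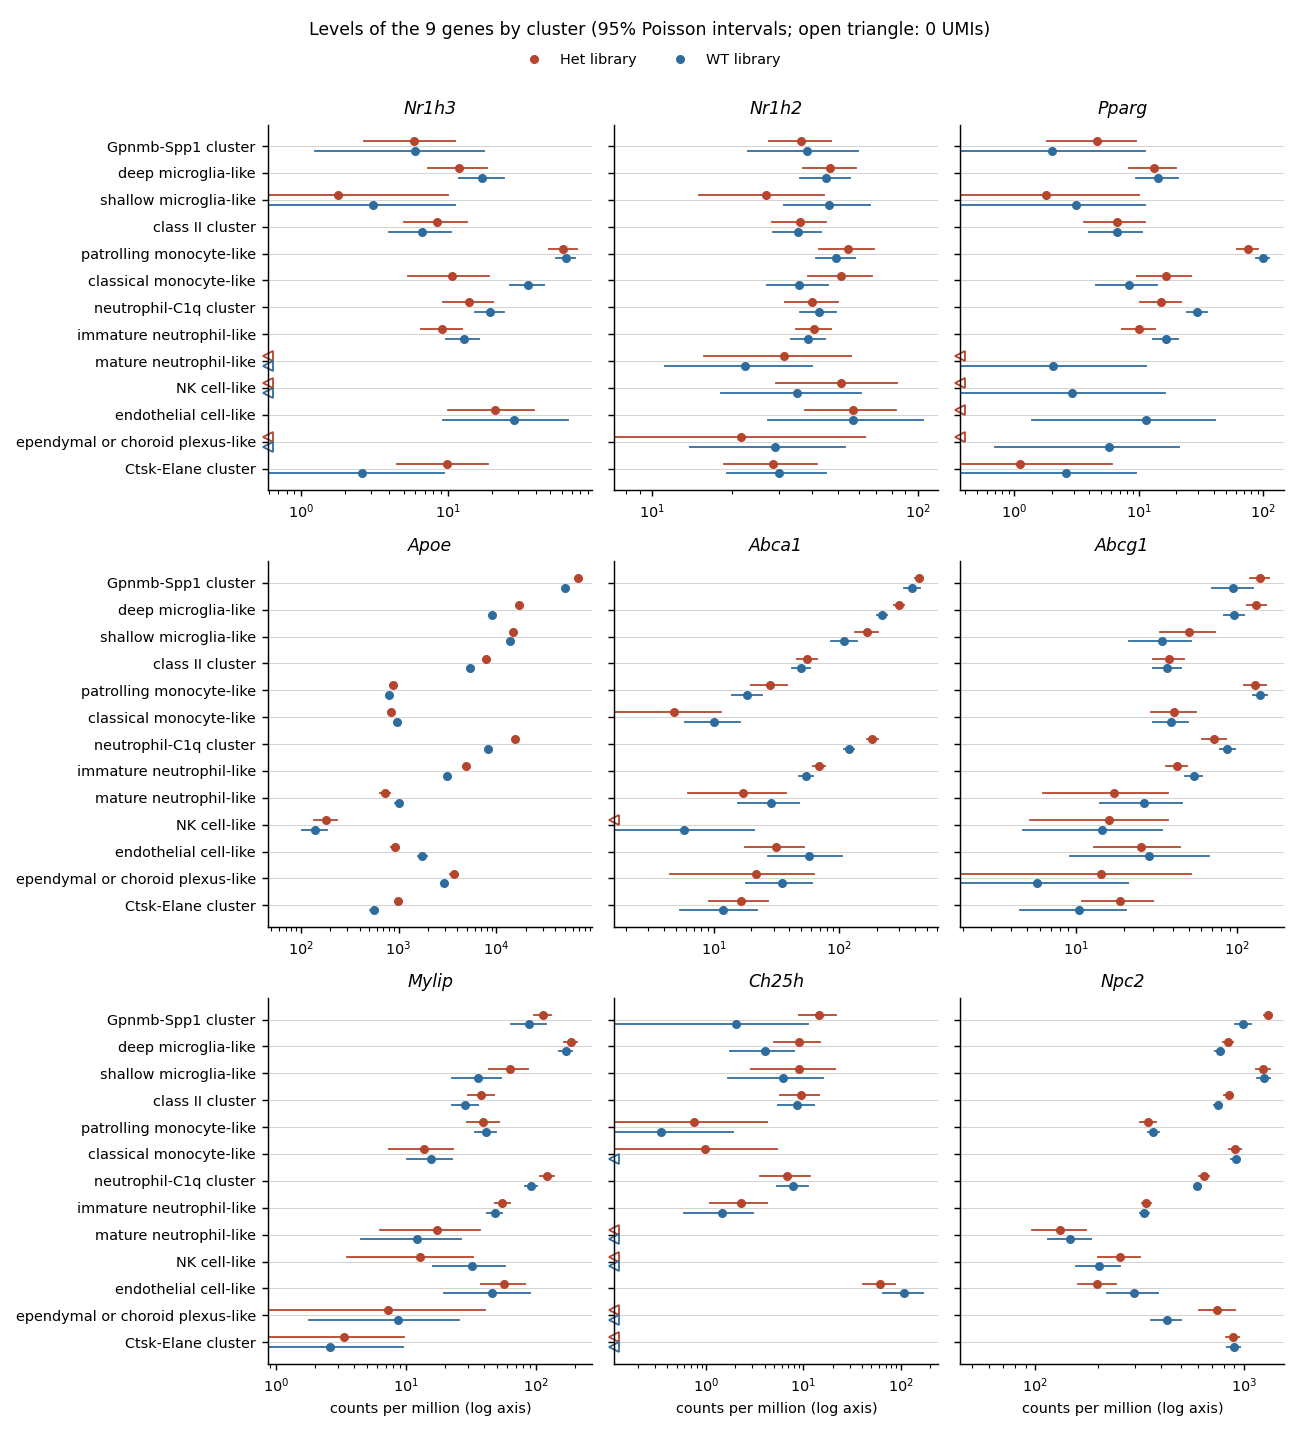
Level of each gene in 13 clusters, in CPM on a log axis, with 95% Poisson intervals, Het library above WT library in each row and open triangles for 0 UMIs. Nr1h3 and Pparg peak in patrolling monocyte-like cells, and Apoe and Abca1 peak in the Gpnmb-Spp1 cluster (68781 and 430 CPM in Het).

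Apoe and Abca1 peaked in another cluster than Nr1h3 and Pparg. Apoe was highest in the Gpnmb-Spp1 cluster, at 68781 CPM in Het and 50050 CPM in WT, so that this cluster held 49.0% of all kept Apoe UMIs in Het and 20.8% in WT. The deep microglia-like cluster followed at 17181 CPM in Het and 9063 CPM in WT, and the shallow cluster had 14748 and 13854 CPM. In these summed levels the order of those 2 clusters differed between libraries. Deep lay above shallow in Het and below it in WT, with counting intervals that did not overlap in either. With cells thinned to 2000 UMIs, the median cell was higher in the shallow cluster in both libraries, and quartiles overlapped. The shallow median was 18 Apoe UMIs in Het (quartiles 5 and 48) and 12 in WT (quartiles 3 and 35.5). The deep median was 11 in Het (quartiles 2 and 43) and 4 in WT (quartiles 1 and 21).

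Apoe was lower in the class II cluster, at 7905 CPM in Het and 5323 CPM in WT, and lower again in patrolling monocyte-like cells, at 878 CPM in Het and 793 CPM in WT. NK cell-like cells, which should lack the gene, still had 180 CPM in Het and 140 CPM in WT. Thinned to 2000 UMIs, a UMI of Apoe was present in 28.0% of Het (7 of 25) and 17.6% of WT (9 of 51) NK cell-like cells, and in 69.8% of Het and 52.7% of WT patrolling cells. The share was 99.4% of Het and 100% of WT cells in the Gpnmb-Spp1 cluster. Median UMI counts before thinning were 7280 in Het and 4811 in WT NK cell-like cells, and 7284 and 6499 in the Gpnmb-Spp1 cluster.

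Apoe varied among the cells of a cluster, and whether as a gradient or as a mix of cells was not tested. Of 2000 UMIs per cell, the median Gpnmb-Spp1 cell gave 123 to Apoe in Het (quartiles 75 and 177, highest 548) and 95 in WT (quartiles 60 and 153.5, highest 405). The deep microglia-like median was 11 in Het (quartiles 2 and 43) and 4 in WT (quartiles 1 and 21). The wide quartiles overlapped between libraries in both clusters, and the median patrolling monocyte-like cell had 1 in each library.

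**Figure D2:**
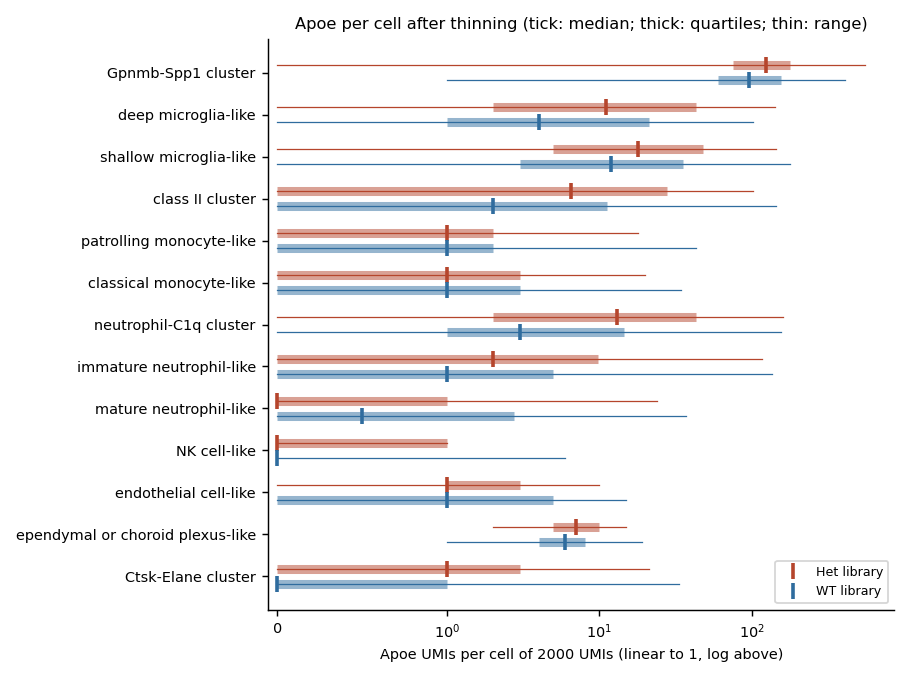
Apoe UMIs per cell after every cell was thinned to 2000 UMIs, by cluster, Het above WT in each row (tick for the median, thick bar for quartiles, thin line for the range, axis linear to 1 and log above). The Gpnmb-Spp1 cells have medians of 123 in Het and 95 in WT, far from the other clusters, and quartiles of the 2 libraries overlap in deep microglia-like cells.

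Abca1, the transporter that lipidates lipid-poor apolipoproteins, had much the same order as Apoe. It was at 430 CPM in Het and 380 CPM in WT in the Gpnmb-Spp1 cluster, at 301 and 220 CPM in the deep microglia-like cluster, and at 165 and 110 CPM in the shallow one. Monocyte-like cells had little: 28.0 CPM in Het and 18.6 CPM in WT patrolling cells, and 4.87 CPM (5 UMIs) in Het and 10.1 CPM (17 UMIs) in WT classical cells. Thinned to 2000 UMIs, 54.8% of Het and 55.4% of WT Gpnmb-Spp1 cells held an Abca1 UMI, against 2.96% of Het and 3.90% of WT patrolling cells and 0% of NK cell-like cells in both.

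Abcg1, which exports cholesterol to formed lipoprotein particles, did not separate the Gpnmb-Spp1 and deep microglia-like clusters from patrolling monocyte-like cells in this way. It was at 138 CPM in Het and 94.5 CPM in WT in the Gpnmb-Spp1 cluster, at 131 and 95.7 CPM in the deep microglia-like cluster, and at 130 and 139 CPM in patrolling monocyte-like cells. Those 3 levels overlapped in Het. In WT the patrolling interval (125.4 to 153 CPM) lay above the deep microglia-like one and touched that of the Gpnmb-Spp1 cluster (up to 125.6 CPM). Classical monocyte-like cells had 40.9 CPM in Het and 39.2 CPM in WT, so Abcg1 and Nr1h3 were each higher in patrolling than in classical cells in both libraries.

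Of the sterol handling genes, Mylip, which encodes the ubiquitin ligase that sends the LDL receptor to degradation, was highest in the deep microglia-like cluster at 185 CPM in Het and 169 CPM in WT. The Gpnmb-Spp1 cluster had 112 CPM in Het and 88.4 CPM in WT, below the deep microglia-like interval in both libraries, so Mylip and Abca1 ranked these clusters in opposite order. Patrolling monocyte-like cells had 39.4 and 40.9 CPM.

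Npc2, which carries cholesterol inside the lysosome, was high in the Gpnmb-Spp1 cluster, shallow microglia-like cells and classical monocyte-like cells alike. It was at 1308 CPM in Het and 989 CPM in WT in the Gpnmb-Spp1 cluster, at 1231 and 1240 CPM in the shallow microglia-like cluster, and at 908 and 911 CPM in classical monocyte-like cells. Patrolling cells were lower, at 347 CPM in Het and 367 CPM in WT, with no overlap with classical cells.

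Ch25h, the enzyme that makes an oxysterol from cholesterol, had its highest level in endothelial cell-like cells, at 61.2 CPM in Het (29 of 116 kept UMIs of the gene) and 108 CPM in WT (19 of 94). A single cell gave 15 of the 29 UMIs in Het and 8 of the 19 in WT, and without those cells the levels were 30.1 CPM in Het and 67.8 CPM in WT. Elsewhere the highest level was 14.3 CPM in the Het Gpnmb-Spp1 cluster, from 22 UMIs in 17 cells, against 2.01 CPM from 1 UMI in WT, a ratio of 7.14 with a counting interval of 1.15 to 295. These 23 UMIs lie below the minimum of 50 set for a call.

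Between libraries, within the microglia-like class, Apoe was the 1 gene of 8 measured that passed 1.5-fold. It was at 16571 CPM in Het and 10243 CPM in WT, a log2 ratio of 0.69 (interval 0.67 to 0.72). Over all 7708 genes measured in the class, 3.54% were higher in Het by this rule and 1.75% lower. Abca1 (log2 ratio 0.47, interval 0.29 to 0.64) and Abcg1 (0.46, interval 0.19 to 0.74) were higher in Het by less than 1.5-fold, and Mylip (0.18) and Npc2 (0.09) by less again. The receptors were on the other side of 0, with Nr1h2 at -0.12, Pparg at -0.15 and Nr1h3 at -0.54 (interval -1.39 to 0.28), and all 3 intervals held 0. The median over the 8 genes was 0.14, beside 0.03 over all genes measured.

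Of the 2 clusters of the class, the deep one had the larger Apoe ratio, a difference between clusters that was not tested. There Apoe was 1.90-fold higher in Het (log2 ratio 0.92, interval 0.90 to 0.95), the only one of 8 genes past 1.5-fold, where 3.46% of all genes were higher and 2.82% lower. In the shallow cluster Apoe differed by a log2 ratio of 0.09 (interval 0.05 to 0.13), while Abca1 (0.59, interval 0.12 to 1.05) and Mylip (0.82, interval 0.02 to 1.64) passed 1.5-fold among 5 measured, where 9.23% of all genes were higher and 3.76% lower. Neutrophil markers summed to 8226 CPM in Het and 9596 CPM in WT shallow cells, against 1074 and 1675 CPM in deep ones. Markers of proliferating cells summed to 1588 and 869 CPM in the shallow cluster. The part of these markers in the ratios was not tested. The Apoe call of the class was lost when each cell counted equally (log2 ratio 0.45), when cells were thinned to 2000 (0.54) or 1000 UMIs (0.43), at a clustering resolution of 1.0 (0.48) or 0.25 (0.17) and with each library clustered alone (0.20). At resolution 0.25 the class held 117 Het and 186 WT cells, in a single cluster led by Klk8 and Ltc4s, while the cluster led by Gpnmb and Spp1 outside it held 291 Het and 233 WT cells. The Apoe ratio was 0.60 without the barcodes listed in both libraries.

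Sex-linked marks changed that comparison most. In the deep microglia-like cluster Apoe was at 17137 CPM in the 115 Xist-marked Het cells, 17584 CPM in the 20 Y-marked WT cells and 5164 CPM in the 93 Xist-marked WT cells. Within WT, Y-marked over Xist-marked cells had a log2 ratio of 1.77 (interval 1.71 to 1.82). Het Xist-marked cells thus differed from WT Y-marked cells by a log2 ratio of -0.04 (interval -0.08 to 0.00) and from WT Xist-marked cells by 1.73 (interval 1.69 to 1.78). When marks were called after thinning every cell to 2000 UMIs, the levels were 17854 CPM in 89 Het Xist-marked cells, 19207 CPM in 13 WT Y-marked cells and 7633 CPM in 94 WT Xist-marked cells.

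Other genes split with the WT marks in their own directions. Mylip was at 186 CPM in Xist-marked Het cells, 64.0 CPM in Y-marked WT cells and 222 CPM in Xist-marked WT cells, with a log2 ratio of Y-marked over Xist-marked WT cells of -1.79 (interval -2.52 to -1.14). Pparg was at 13.3 CPM in Xist-marked Het, 45.7 CPM in Y-marked WT and 1.14 CPM (1 UMI) in Xist-marked WT cells. Abca1 was at 300.2 CPM in Xist-marked Het, 225 CPM in Y-marked WT and 254 CPM in Xist-marked WT cells, and the interval between the WT marks held 0 (log2 ratio -0.17, interval -0.57 to 0.21).

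Markers of other cell types moved with the mark in the same cluster. The summed level of the 12 microglia markers was 11371 CPM in Xist-marked Het, 4891 CPM in Y-marked WT and 17463 CPM in Xist-marked WT cells. The 8 patrolling monocyte markers summed to 1326, 3198 and 458 CPM in that order, and the 12 neutrophil markers to 1053, 3670 and 1272 CPM. Median depth was 10850, 13924 and 7223 UMIs. Their part in the Apoe, Mylip and Pparg differences was not tested.

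**Figure D3:**
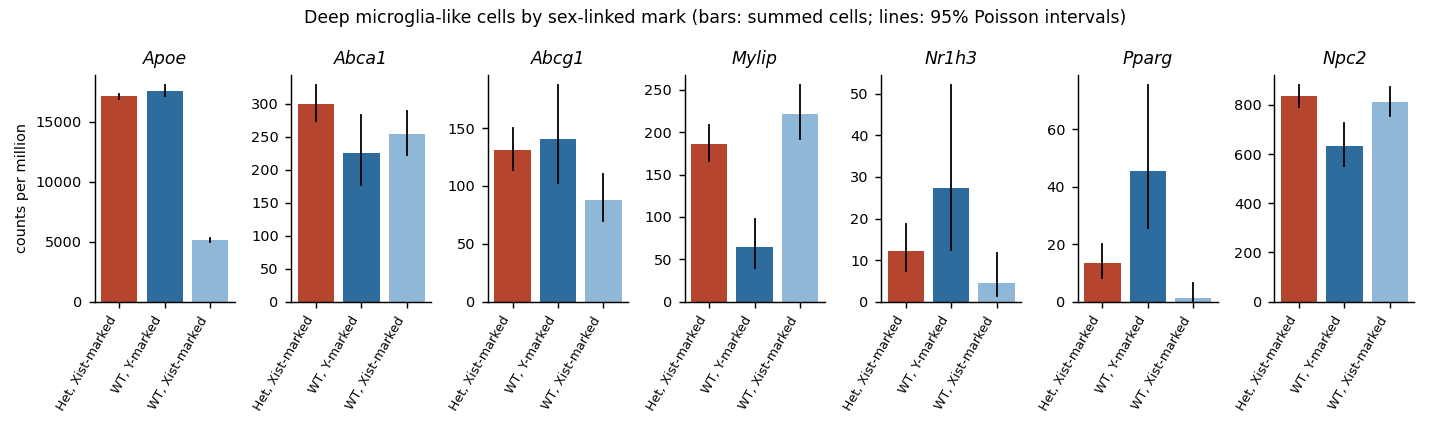
Levels of 7 genes in the deep microglia-like cluster by sex-linked mark, in CPM on axes from 0, with bars for summed cells and lines for 95% Poisson intervals. Apoe is level between Xist-marked Het (17137 CPM) and Y-marked WT cells (17584 CPM) and lower in Xist-marked WT cells (5164 CPM), while Mylip is lowest in Y-marked WT cells (64.0 CPM).

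In the monocyte-like class 0 of 8 genes measured passed 1.5-fold in either direction, where 2.38% of all genes were higher and 2.29% lower. Apoe was at 860 CPM in Het and 852 CPM in WT, a log2 ratio of 0.01 (interval -0.06 to 0.09). That value depended on the processing: over 16 alternatives it ran from -0.02 to 3.24, and 10 of them lay outside the interval. It was 1.29 at a clustering resolution of 1.0, where a patrolling monocyte-like cluster of 124 cells had C1qa at 2983 CPM. It was 3.24 with each library clustered alone, when the class held 314 Het and 561 WT cells. The Het classical monocyte-like cluster then had C1qa at 1600 CPM, against 130 CPM in Het as reported. In those 2 settings the class thus took in cells with C1q RNA. Nr1h3 (-0.44, interval -0.81 to -0.09) and Pparg (-0.41, interval -0.73 to -0.10) were the lowest ratios, both lower in Het. Within patrolling cells Nr1h3 was even (-0.06, interval -0.45 to 0.32), Pparg stood at -0.40 (interval -0.74 to -0.07), and Abca1 alone of 8 passed 1.5-fold (0.59, interval -0.05 to 1.22; 2.36% of all genes higher, 3.33% lower). Within classical cells Nr1h3 was the 1 gene of 5 past 1.5-fold, at 10.7 CPM in Het (11 UMIs) and 35.0 CPM in WT (59 UMIs), a log2 ratio of -1.71 (interval -2.79 to -0.77), where 4.36% of all genes were higher and 3.48% lower. A single WT cell held 10 of those 59 UMIs, and the levels without the highest cell of each library were 8.88 CPM in Het and 29.8 CPM in WT.

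**Figure D4:**
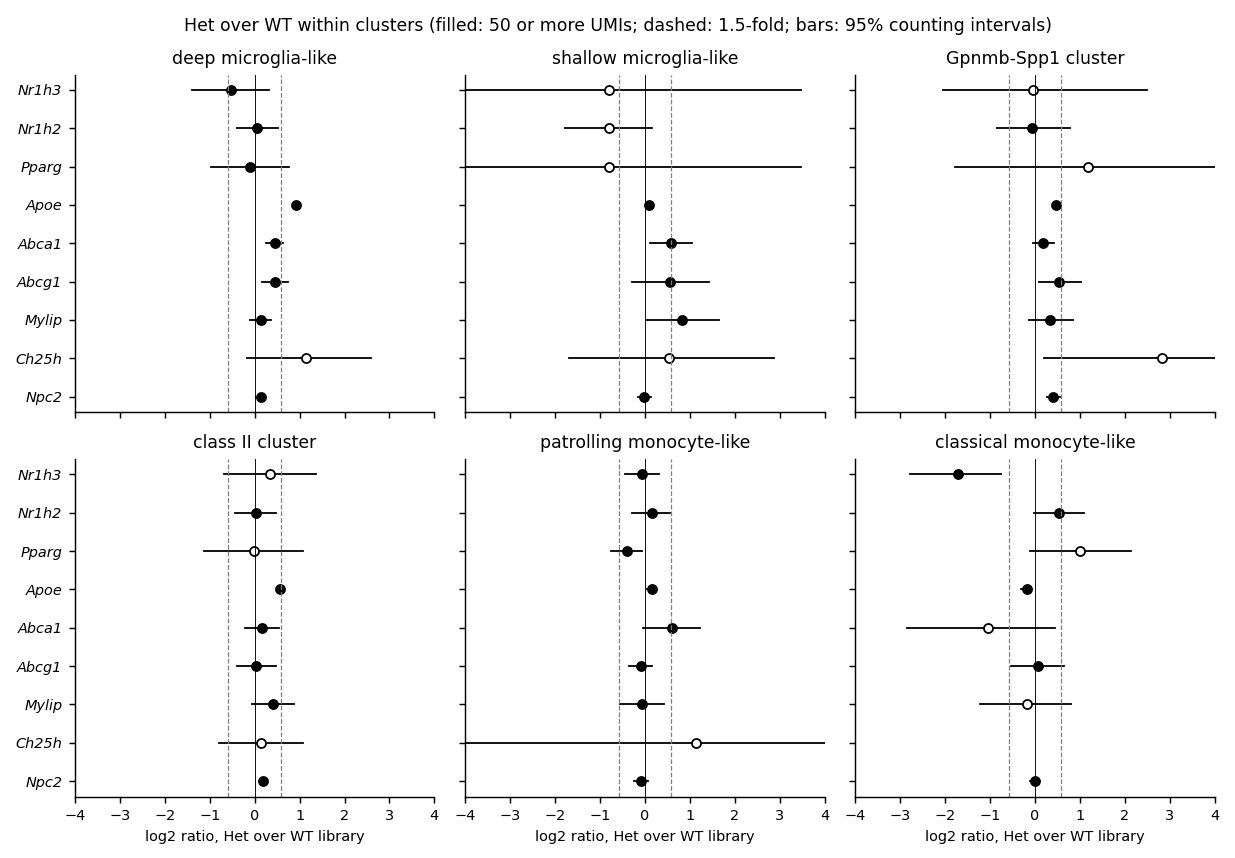
Log2 ratio, Het over WT library, of the 9 genes in 6 clusters, with 95% counting intervals, filled points for genes with 50 or more UMIs and dashed lines at 1.5-fold. Filled points past the lines are Apoe in deep microglia-like cells (0.92), Abca1 (0.59) and Mylip (0.82) in shallow microglia-like cells, Abca1 in patrolling cells (0.59) and Nr1h3 in classical cells (-1.71).

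In the clusters outside the microglia-like class that had C1q genes at high levels, summed together, 5 of 7 genes measured were past 1.5-fold higher in Het, where 7.18% of all genes were higher and 4.01% lower. These were Apoe (log2 ratio 1.44), Abca1 (1.07), Mylip (0.86), Abcg1 (0.80) and Ch25h (0.61). That sum joined the Gpnmb-Spp1 cluster, with 162 Het and 64 WT cells, and the class II cluster, with 184 and 226 cells. Within each of those clusters 0 of 6 genes measured passed 1.5-fold: in the Gpnmb-Spp1 cluster 7.98% of all genes were higher and 7.76% lower, and in the class II cluster 4.47% and 2.55%.

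Within the Gpnmb-Spp1 cluster Apoe had a log2 ratio of 0.46 (interval 0.44 to 0.48), Abcg1 0.54 (interval 0.08 to 1.03), Npc2 0.40 (interval 0.26 to 0.55) and Abca1 0.18 (interval -0.06 to 0.42). Within the class II cluster Apoe stood at 0.57 (interval 0.54 to 0.60) and Mylip at 0.40 (interval -0.07 to 0.87). Border macrophage markers summed to 3165 CPM in Het and 5172 CPM in WT Gpnmb-Spp1 cells, with 0 of 10 markers at 0 in either library, and microglia markers to 6964 and 5353 CPM. Classical monocyte markers summed to 171 CPM in Het and 732 CPM in WT there (1 and 2 of 8 at 0), patrolling monocyte markers to 157 and 360 CPM (0 of 8 at 0 in either) and dendritic cell markers to 77.6 and 167 CPM (4 and 7 of 12 at 0). In the class II cluster border macrophage markers summed to 1292 CPM in Het and 737 CPM in WT (1 and 0 of 10 at 0), neutrophil markers to 1611 and 1036 CPM (0 of 12 at 0 in either) and NK cell markers to 90.8 and 7.81 CPM (0 and 1 of 8 at 0). These clusters thus differed between libraries in markers of other cell types, whose part in the ratios was not tested.

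Marks mattered here too. In the Gpnmb-Spp1 cluster Apoe was at 67297 CPM in 152 Xist-marked Het cells, 54584 CPM in 22 Y-marked WT cells and 31538 CPM in 16 Xist-marked WT cells. In the class II cluster the WT order was turned round, with 8168 CPM in 131 Xist-marked Het, 3974 CPM in 114 Y-marked WT and 13131 CPM in 23 Xist-marked WT cells. Abca1 followed Apoe there, at 56.5 CPM in Xist-marked Het, 27.5 CPM in Y-marked WT and 129.6 CPM in Xist-marked WT cells. With marks called after thinning, Apoe in the class II cluster was at 10745 CPM in Xist-marked Het, 5085 CPM in Y-marked WT and 9482 CPM in Xist-marked WT cells, so the order of the Xist-marked libraries depended on how the mark was called.

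Over all kept cells Apoe (log2 ratio 1.17), Abca1 (0.66) and Ch25h (0.63) were higher in Het, and Nr1h3 (-0.66) and Pparg (-0.91) lower, 5 of 9 past 1.5-fold, where 8.81% of all genes were higher and 1.76% lower. When the 15 clusters present in both libraries were given the same share of UMIs in each, Apoe stood at 0.61 and was the only one of 9 past 1.5-fold. Abca1 then had 0.37, Ch25h 0.17, Nr1h3 -0.32 and Pparg -0.46. The shares of Gpnmb-Spp1 and patrolling monocyte-like cells given above, which are of cells and not of UMIs, are part of the measured difference in make-up. Other shares differed too, with endothelial cell-like cells at 5.31% of Het and 1.80% of WT cells.

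**Figure D5:**
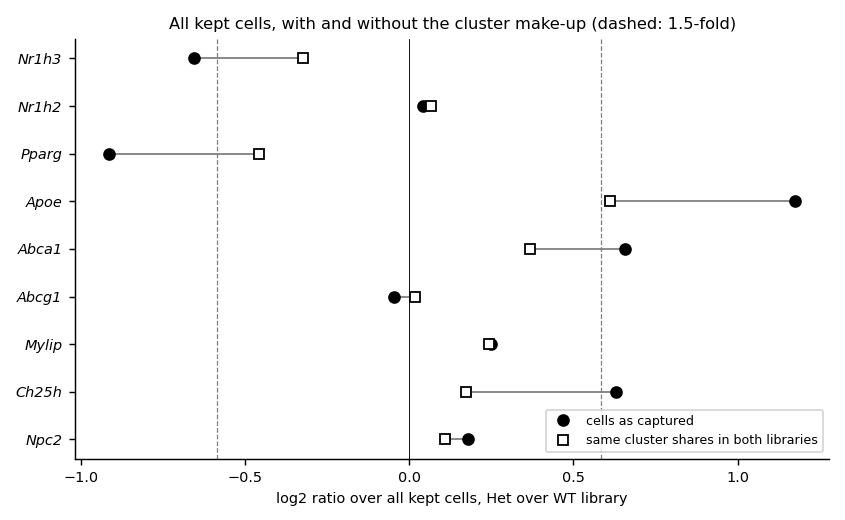
Log2 ratio, Het over WT library, over all kept cells (filled circles) and after cluster shares of UMIs were made equal (open squares), with dashed lines at 1.5-fold. Making the shares equal moves Apoe to 0.61 from 1.17, and Pparg to -0.46 from -0.91, towards 0.

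Apoe also differed between libraries in neutrophil-like and other clusters, in both directions. In immature neutrophil-like cells Apoe was at 4926 CPM in Het and 3113 CPM in WT (log2 ratio 0.66) and Pparg was lower in Het (-0.70), 2 of 8 genes past 1.5-fold (2.07% of all genes higher, 4.06% lower). Their median depth was 22606.5 UMIs in Het and 20011 in WT. Of the 188 WT cells, 41 carried both Xist and Y-linked RNA. With cells thinned to 2000 UMIs, the median one had 2 Apoe UMIs in Het (quartiles 0 and 9.75, highest 116). In WT the median was 1 (quartiles 0 and 5, highest 134). The level thus rested on a part of these cells. In the neutrophil-C1q cluster Apoe (0.92) and Abca1 (0.62) were higher in Het and Pparg lower (-0.96), 3 of 8 (4.02% higher, 4.43% lower). Apoe was also the 1 gene of 2 past 1.5-fold in the Ctsk-Elane cluster (0.80, higher in Het; 8.48% of all genes higher, 9.57% lower), in endothelial cell-like cells (-0.95, lower in Het; 14.6% higher, 9.68% lower) and in mast cell or basophil-like cells (-1.55, lower in Het; 10.5% higher, 12.1% lower). The last ratio rested on 1 WT cell with 90 of the 109 WT UMIs: without the highest cell of each library Apoe was at 240.5 CPM in Het and 169.6 CPM in WT mast cell or basophil-like cells, the other direction. Of endothelial cell-like cells, 21 of 79 Het and 18 of 35 WT had a barcode that is in both libraries. In the Ctsk-Elane cluster this held for 65 of 101 Het and 49 of 79 WT cells. Per 1000 UMIs of C1q genes, immature neutrophil-like cells held 1215 Apoe UMIs in Het and 808 in WT, and deep microglia-like cells 1074 and 567. Whether these neutrophil UMIs came from free RNA or joined cells was not tested.

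A list of 30 other genes of the pathway (retinoid X receptors and corepressors, liver X receptor targets and sterol handling genes) was read in the same way. In the microglia-like class 2 of 29 measured were higher in Het and 0 lower, beside 3.54% and 1.75% of all genes: Scd2, a fatty acid desaturase, at 57.6 CPM in Het and 35.9 CPM in WT (log2 ratio 0.68), and Tmem97, a sterol-regulated membrane protein, at 18.4 and 11.45 CPM (0.69). The list's median log2 ratio there was 0.12, beside 0.03 over all genes. In the monocyte-like class 0 of 27 passed, beside 2.38% of all genes higher and 2.29% lower.

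In the Gpnmb-Spp1 cluster 5 of 22 were higher in Het and 2 lower, where calls were also more frequent over all genes (7.98% higher, 7.76% lower). Nceh1, which frees cholesterol from its ester, had a log2 ratio of 1.55, Scd2 1.26, the lysosomal exporter Npc1 1.16 and the cholesterol esterifying enzyme Soat1 0.67. Pltp, the phospholipid transfer protein, was at 73.0 CPM in Het and 328 CPM in WT (-2.17), and the scavenger receptor Cd36 at 21.5 and 66.3 CPM (-1.62). In the class II cluster Nceh1 (0.80), Cd36 (0.76), the lipase Lpl (0.71) and the oxysterol-forming Cyp27a1 (0.60) were higher, and Scarb1, the high-density lipoprotein receptor, lower (-0.82), of 26 measured, beside 4.47% of all genes higher and 2.55% lower. Cd36 thus lay on opposite sides of 0 in the Gpnmb-Spp1 and class II clusters; the difference between them was not tested.

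Across 26 points (13 clusters in each of 2 libraries, sharing library and depth), Apoe and Abca1 levels had a Pearson r of 0.94 on a log2 scale with 10 CPM added, the highest of the member pairs. Abca1 and Mylip had 0.82, Nr1h3 and Pparg 0.81, and Abcg1 and Mylip 0.78. Nr1h3 had -0.03 with Apoe and 0.06 with Abca1, so the receptor and these efflux genes did not share an order of clusters. Among 8814 other genes, the nearest to Apoe were Tmem176a, Tmem86a and Stab1 (each 0.93), and Tmem86a and Cacna1d (each 0.94) were among the 3 nearest to Abca1. Abcg1 lay nearest to Tlr7 (0.95), Pparg to Cd300e (0.95), Nr1h3 to Rras (0.91), Mylip to Zfhx3 (0.90), Npc2 to Igsf8 (0.88), Ch25h to Eogt (0.94) and Nr1h2 to Edem3 (0.83).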

How the data were processed

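Single cells were profiled with a 10x Genomics droplet kit that reads 3′ ends, per the labels' protocols. The deposited matrices hold raw, unnormalized UMI counts for each gene in each barcode. Cell Ranger 4.0 and mm10 are named in the submitters' processing notes, whereas the file headers name 5.0.0, and which version made the counts is not settled here. Every listed barcode had at least 500 UMIs. GENCODE M21 (GRCm38) gave gene positions.

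Cells with 500 or more genes and under 10% mitochondrial UMIs were kept. Both libraries were clustered together in scanpy 1.11.5 (10000 per cell, log1p, 2000 variable genes, 30 components, 15 neighbours, Leiden resolution 0.5, seed 0) with the 9 genes, the pathway list and sex-linked genes left out of the variable genes. A cluster was named when, among its 10 leading genes, 1 marker list led and 3 or more of its markers were 1.5-fold higher and in 10% of cells, over 20 lists. C1q-high means 1000 CPM or more of each of C1qa, C1qb and C1qc, with under 10000 CPM of S100a8 and S100a9. No doublet caller was run and no cell was removed as a doublet. UMIs were summed per library and cluster; Poisson, Clopper-Pearson and conditional binomial intervals are at 95%. The interval code was tested on simulated data.

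The 9 genes, the gene lists and the marker lists were chosen with earlier results of these data known. Named genes were all 9, up to 6 pathway genes per class with the highest absolute ratio past 1.5-fold, and the 3 genes nearest in pattern, of which the text prints some; 1 gene that the rule takes is not reported here. A minimum of 200 UMIs and 20 cells applied to that likeness. Alternatives were cell filters, scaling (edgeR 4.0.16, DESeq2 1.42.0), equal weight per cell, thinning to 2000 or 1000 UMIs, UMI minimums, clustering settings, shared barcodes, neutrophil RNA and sex marks. Comparing Xist-marked cells of both libraries, leaving out the highest cell, and marks called after thinning were added after seeing the data.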

Additional observations from a re-analysis of the deposited data

Results flagged for a closer look

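The ratio of Apoe, Het over WT library, ran in opposite directions between clusters. It was higher in Het in the neutrophil-C1q cluster (log2 ratio 0.92), the deep microglia-like cluster (0.92), the Ctsk-Elane cluster (0.80) and immature neutrophil-like cells (0.66). It was lower in Het in endothelial cell-like cells (-0.95; 79 Het and 35 WT cells) and in mast cell or basophil-like cells (-1.55; 10 Het and 11 WT cells). In the mast cell or basophil-like cells 1 WT cell held 90 of the 109 WT Apoe UMIs, and without the highest cell of each library the levels were 240.5 CPM in Het and 169.6 CPM in WT, the other direction. In the Ctsk-Elane cluster 65 of 101 Het and 49 of 79 WT cells had a barcode that is in both libraries. So did 21 of 79 Het and 18 of 35 WT endothelial cell-like cells. As reported, each of these ratios passed 1.5-fold with an interval clear of 0, and the difference between clusters was not tested. In endothelial cell-like cells 1 WT cell held 99 of the 308 WT Apoe UMIs, and without the highest cell of each library the levels were 828 CPM in Het and 1303 CPM in WT.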

How the results depend on the processing

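No paired analysis was possible because there was 1 library per genotype. Counts here are of genes past 1.5-fold, with those higher and lower in Het in brackets. The share of all genes past 1.5-fold was not computed under the alternative settings. The counts are thus not set against a background, and some rest on few cells. Where clustering was redone, classes were named anew and could hold other cells. Of the 9 genes in the microglia-like class (1 as reported), there were 4 (3, 1) with no cell filter, 3 (2, 1) with each library clustered alone, 0 at resolution 1.0 and with cells thinned to 2000 UMIs, and 2 with the stricter filter, with all genes kept for clustering, at resolution 0.25, without shared barcodes, under median-of-ratios scaling and at a minimum of 10 UMIs. In the monocyte-like class (0 as reported) there were 3 at resolution 1.0, 4 with each library clustered alone, 1 with cells thinned to 2000 UMIs, 3 with equal weight per cell and 6 between Xist-marked cells of both libraries, with 9 such WT cells. Outside the class, C1q-high clusters (5 as reported) gave 0 with no cell filter, 2 between Xist-marked cells, and 3 at resolution 0.25 and after thinning to 2000 or 1000 UMIs. With no cell filter the cluster led by Gpnmb and Spp1 (329 Het, 261 WT cells) was itself named microglia-like. The microglia-like class then held 460 Het and 517 WT cells, and the C1q-high clusters 235 and 273. Counts without the filter thus cover other cells than those reported. The Gpnmb-Spp1 cluster (0 as reported) gave 3 with no cell filter, at resolution 0.25 and between Xist-marked cells, and 1 after thinning to 2000 UMIs, for Xist-marked Het over Y-marked WT cells, under TMM and at a minimum of 10 UMIs. All kept cells (5 as reported) gave 3 under median-of-ratios scaling and 1 with equal cluster shares.

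For the pathway list, the microglia-like class (2 as reported) gave 5 with no cell filter, 4 with the stricter filter and without shared barcodes, 12 (4, 8) with each library clustered alone, 1 after thinning to 2000 or 1000 UMIs and at a minimum of 200 UMIs, 6 with equal weight per cell, and 11 (8, 3) for Xist-marked Het over either Y-marked or Xist-marked WT cells. The monocyte-like class (0 as reported) gave 1 with all genes kept for clustering, at resolutions 1.0 and 0.25, with each library clustered alone and after thinning to 2000 UMIs, 5 with equal weight per cell, 3 at a minimum of 10 UMIs and 14 (10, 4) between Xist-marked cells.

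Of 686 alternative values of single ratios, 525 lay within the interval of the reported ratio and 150 lay outside it without turning a call. The other 11 values had the sign opposite to a called ratio, some of them for the same ratio. These values covered the microglia-like, monocyte-like and C1q-high classes, all kept cells and the Gpnmb-Spp1 cluster, and no other single cluster. For Xist-marked Het over Y-marked WT cells, Apoe in the microglia-like class was -0.11. Between Xist-marked cells, Abca1 (-0.26) and Ch25h (-0.21) in C1q-high clusters and Nr1h3 (1.84), Pparg (1.37), Abca1 (-0.58) and Ch25h (-0.53) over all kept cells turned. Ch25h in C1q-high clusters also turned with no cell filter (-0.094) and after thinning to 2000 (-0.47) or 1000 UMIs (-0.24), and over all kept cells after thinning to 2000 (-0.32). The cause was not tested. Apoe in the microglia-like class ranged from -0.11 to 1.67, while Abca1 there (0.18 to 0.68) and Abcg1 (0.17 to 0.58) kept their sign in 16 of 16 alternatives. With 1 library per genotype, spread between animals was not measured, and 50 UMIs is the lowest depth behind a call.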

Other observations

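Apoe UMIs set against UMIs of C1q genes, which macrophages also make, varied widely by cluster. Per 1000 C1q UMIs there were 3390 Apoe UMIs in Het and 2782 in WT Gpnmb-Spp1 cells, 829 and 694 in class II cells, and 635 and 517 in shallow microglia-like cells. Patrolling monocyte-like cells had 1229 in Het and 876 in WT. NK cell-like cells, with 29 Het and 112 WT C1q UMIs in all, had 1931 and 429. In ependymal or choroid plexus-like cells there were 5795 in Het and 26026 in WT, from 88 and 39 C1q UMIs, and 36 of 39 Het and 36 of 36 WT cells of that cluster had a barcode that is in both libraries. Apoe there was at 3676 CPM in Het and 2944 CPM in WT.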
